A study of Mus musculus with 63 samples.

Results

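The genes described here encode the nuclear subunits of the oxidative phosphorylation complexes. They were taken by symbol: names beginning Ndufa, Ndufb, Ndufc, Ndufs, Ndufv, Uqcr, Cox4 to Cox8 or Atp5, plus the Sdh genes and Cyc1, with assembly factors left out. The rule found 81 genes on 100 probes, among 16593 named genes on the array. Of these 81 genes, 75 passed the filter on low values and were tested among 8740 genes, and 70 lay above the array minimum on every array. Complex I had 35 members (34 tested), complex II 3 (3 tested), complex III 9 (8 tested), complex IV 18 (14 tested) and complex V 16 (16 tested). Complexes were assigned by symbol, so Ndufa4 is counted with complex I.

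Oxidative phosphorylation is carried out in the mitochondrial inner membrane. Complexes I and II pass electrons from NADH and succinate to ubiquinone, complex III passes them to cytochrome c, complex IV reduces oxygen to water, and complex V, the ATP synthase, uses the proton gradient to make ATP. Most subunits are nuclear genes, and several complex IV and complex V subunits have tissue-specific or alternative isoforms. In mouse embryonic stem cells energy supply leans on glycolysis, and in low oxygen the transcription factor HIF-1 is known to raise glycolytic genes and to change the isoform used at some complex IV positions.

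Total RNA from TT2 mouse embryonic stem cells was measured on 63 Illumina BeadChip arrays, 1 array per culture. The 7 lines were 2 wild-type lines (WT1, WT2), 2 lines lacking Jmjd1a (JMJD1a KO1, JMJD1a KO2), 2 lines lacking G9a (G9a KO1, G9a KO2) and G9a KO1 with G9a put back (G9a KO1 reconstituted). Jmjd1a, also called Kdm3a, removes and G9a, also called Ehmt2, adds methyl groups at lysine 9 of histone H3. Each line was plated at 200000, 400000 or 600000 cells per 6 cm plate and then, after 18 h, kept for 24 h in 21% oxygen (normoxia), for 20 h in normoxia and 4 h in 1% oxygen, or for 24 h in 1% oxygen. All lines are male and of a C57BL/6 by CBA background and were grown with serum and LIF. The labels do not say how the paired lines of a genotype were derived, and the G9a reconstitution is 1 line. With 3 densities per line and exposure there were 21 cultures per exposure, 6 per genotype and exposure, and 3 for the reconstituted line. The p-values measure the spread between these cultures, except where levels of knockout and wild-type lines were compared on line means. Nothing in the labels says that the cultures were plated on separate days.

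All 15 pluripotent stem cell markers tested were above the array minimum on all 63 arrays, while of 9 fibroblast markers on the array 7 were too dim to test, among them Col1a2, Col3a1 and Pdgfrb. The other 2 were tested, and 1 of them was above the minimum on all arrays. The mean log2 level of these 2 ran from 4.94 to 6.18 in normoxia and from 4.84 to 6.76 at 24 h of hypoxia. Kdm3a was at the array minimum in all 18 Jmjd1a knockout cultures and between 10.08 and 11.07 on the log2 intensity scale in the 18 wild-type cultures. Ehmt2 had a median log2 intensity of 8.35 in the G9a knockout cultures and 9.12 in the wild-type cultures, with overlapping ranges, and whether its probe lies in the deleted part was not tested. Total intensity moved in steps along 8 sets of consecutive arrays, with totals between 6974757 and 8408782. The sets are not named in the labels, and each holds 1 or 2 lines. Across arrays the set accounted for a median of 78.5% of the variance of the 70 members and 61.5% over 5953 genes that were above the minimum on every array. Exposure accounted for a median of 5.91% and 10.8%. Exposure and density were therefore tested within line and set, and differences between genotypes cannot be told apart from differences between sets.

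The 4 promoters printed here belong to the members with the largest falls (Atp5o and Atp5g1) and the largest rise (Ndufv3) after 24 h of hypoxia over all lines, and to a member at the array minimum in wild-type and well above it in G9a knockout cultures (Cox7b2). Each window of 300 bases lies around the annotated start, mostly upstream of it, as given by RefSeq on GRCm38.p6, and is written 5′ to 3′ on the strand of the gene. Capitals mark the motifs searched on both strands, which were CCGGAAG (ETS factors), ACGTG (the HIF core), CACGTG (the E-box, which holds the HIF core on both strands), GGGCGG (Sp1) and GCGGGAA (E2F6).
Atp5o, chr16:91931581-91931880, minus strand: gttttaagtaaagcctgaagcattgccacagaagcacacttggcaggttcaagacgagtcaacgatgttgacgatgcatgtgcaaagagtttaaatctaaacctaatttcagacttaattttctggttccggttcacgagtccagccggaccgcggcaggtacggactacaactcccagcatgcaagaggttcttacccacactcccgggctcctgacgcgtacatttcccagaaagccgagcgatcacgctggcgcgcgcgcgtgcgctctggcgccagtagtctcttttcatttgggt
Atp5g1, chr11:96075582-96075881, minus strand: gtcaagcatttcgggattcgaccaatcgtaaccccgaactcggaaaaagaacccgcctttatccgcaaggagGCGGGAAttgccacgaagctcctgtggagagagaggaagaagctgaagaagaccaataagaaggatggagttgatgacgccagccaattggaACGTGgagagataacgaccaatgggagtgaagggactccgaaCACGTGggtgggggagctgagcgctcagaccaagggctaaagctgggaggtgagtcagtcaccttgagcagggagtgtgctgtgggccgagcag
Ndufv3, chr17:31519865-31520164, plus strand: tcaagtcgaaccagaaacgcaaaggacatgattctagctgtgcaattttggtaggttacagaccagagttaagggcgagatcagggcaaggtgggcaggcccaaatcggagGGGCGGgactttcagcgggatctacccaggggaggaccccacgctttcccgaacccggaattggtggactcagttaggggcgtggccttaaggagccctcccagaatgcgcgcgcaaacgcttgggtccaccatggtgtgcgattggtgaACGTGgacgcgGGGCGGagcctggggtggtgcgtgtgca
Cox7b2, chr5:71548156-71548455, minus strand: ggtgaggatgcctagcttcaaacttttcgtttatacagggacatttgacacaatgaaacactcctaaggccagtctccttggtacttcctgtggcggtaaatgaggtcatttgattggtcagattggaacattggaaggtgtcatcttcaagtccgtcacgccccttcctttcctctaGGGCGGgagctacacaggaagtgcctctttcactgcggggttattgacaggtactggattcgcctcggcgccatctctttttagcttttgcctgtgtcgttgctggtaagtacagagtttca
The Atp5o window held none of these motifs and 22 CpG dinucleotides. The Atp5g1 window held 3 matches to the HIF core, 2 of them inside its 1 E-box, and 1 match to the E2F6 motif. The Ndufv3 window held 1 HIF core and 2 Sp1 motifs, and the Cox7b2 window held 1 Sp1 motif and 10 CpG dinucleotides.

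A promoter window was available for 65 of the 81 genes and for 27025 genes in all. The latter were not limited to the 8740 genes tested here, so the shares do not set the members against other expressed genes. The ETS motif was in 24.6% of the member genes and in 9.93% of all genes, and the E2F6 motif was in 9.23% and 5.29%. The HIF core was in 24.6% of the member genes and 21.8% of all genes, the Sp1 motif in 43.1% and 38.2%, and the E-box in 9.23% and 8.09%. These are matches of letters, not measured binding.

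After 24 h in 1% oxygen most subunits stayed close to their normoxic level, and those that changed mostly fell. Over all 7 lines 23 of 75 subunits fell and 4 rose, against 26.2% of all tested genes lower and 25.9% higher, so the share that fell (30.7%) was near the background and the share that rose (5.33%) was below it. The 27 calls became 42 (4 higher, 38 lower, against 63% of all genes called) without the array-set term and 48 (10 higher, 38 lower, against 64.3%) with the set as a random block. The median log2 difference was -0.07 for the 75 subunits and -0.01 over 8740 genes. The plot of differences by complex shows that the changes were small, with Atp5o at one end and Ndufv3 at the other.

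**Figure D1:**
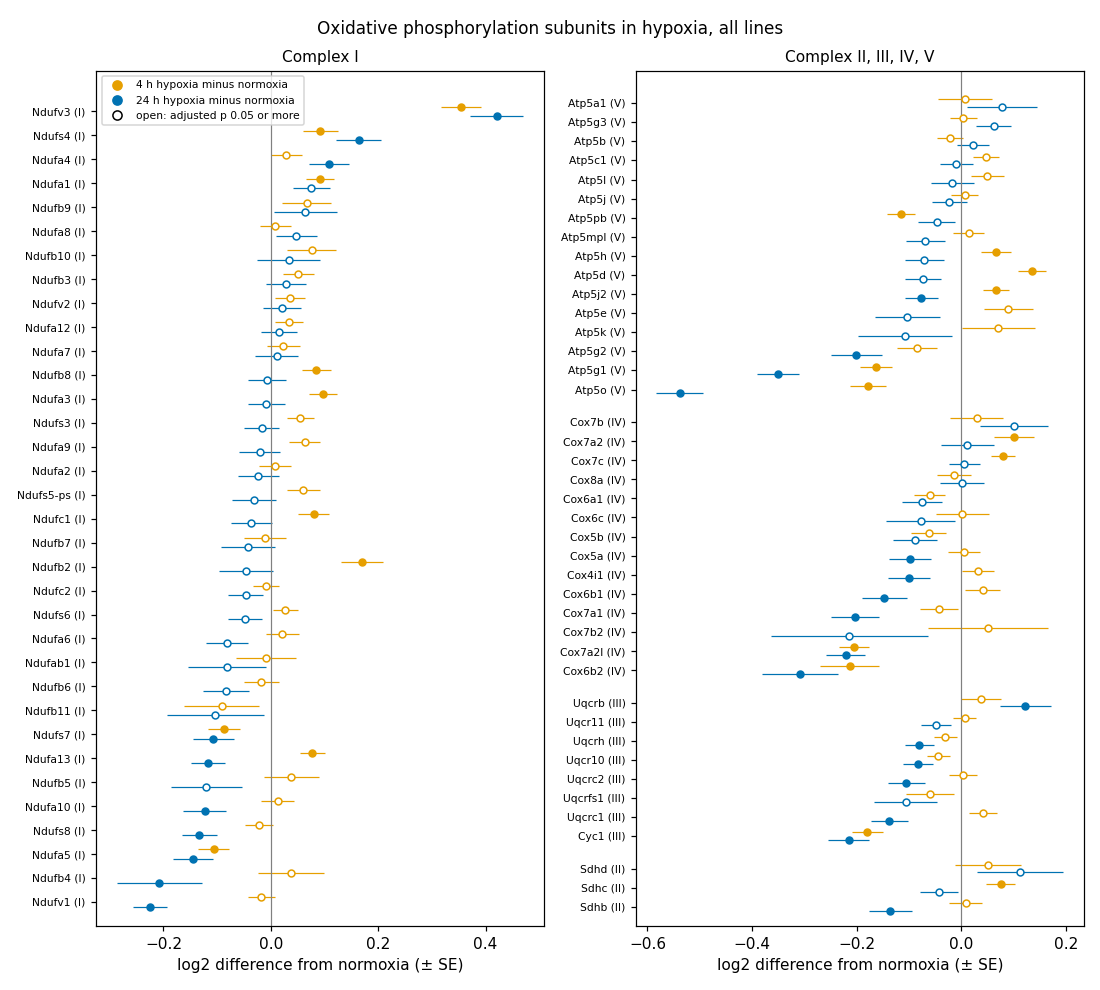
Log2 difference from normoxia (horizontal axis, with SE) for each of the 75 tested subunits, grouped by complex, after 4 h (orange) and 24 h (blue) in 1% oxygen over 7 lines. Filled points have an adjusted p under 0.05. Atp5o at -0.54 and Ndufv3 at 0.42 lie farthest from 0 at 24 h.

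In complex V, the ATP synthase, 4 of 16 subunits fell and none rose at 24 h. Over all tested genes 26.2% were lower and 25.9% higher. Atp5o, the stalk subunit known as OSCP that joins the catalytic head to the membrane part, ran from 7.67 through a median of 8.38 to 8.54 in the 21 normoxic cultures. It ran from 7.77 through 8.24 to 8.44 at 4 h and from 7.42 through 7.82 to 8.00 at 24 h. Outside the reconstituted line every 24 h culture lay below every normoxic culture of its own line, and 2 of the 3 normoxic cultures of the reconstituted line, those of the seventh array set, were no higher than its hypoxic ones. The fitted log2 difference at 24 h was -0.54 (SE 0.045, adjusted p = 1.6e-14), and at 4 h it was -0.18 (SE 0.035, adjusted p = 2.2e-05). Between 4 h and 24 h Atp5o fell by 0.36 (SE 0.036, adjusted p = 3.1e-12), and it was lower at 24 h in all 6 lines where the exposures could be compared inside 1 array set.

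Subunit c forms the rotating ring of the ATP synthase, and its mature protein is encoded by Atp5g1, Atp5g2 and Atp5g3. Atp5g1 ran from 12.39 through a median of 12.68 to 12.98 in normoxia, from 12.14 through 12.54 to 12.72 at 4 h and from 11.90 through 12.34 to 12.55 at 24 h. The ranges overlap across lines, but inside 1 set the mean was lower at 24 h than in normoxia in all 3 lines that allow the comparison. The fitted difference was -0.35 at 24 h (SE 0.040, adjusted p = 2.4e-10) and -0.16 at 4 h (SE 0.031, adjusted p = 1.3e-05).

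Atp5g2 fell by 0.20 at 24 h (SE 0.049, adjusted p = 0.00052), with a difference of -0.09 at 4 h that did not pass the threshold. Atp5g3 differed by 0.06 at 24 h (SE 0.033) and by less than 0.01 at 4 h, and neither passed. The 3 genes for this subunit thus had separate values, and the difference between them was not tested. Atp5j2, the f subunit of the membrane part, fell by 0.08 at 24 h (SE 0.032, adjusted p = 0.038) after a rise of 0.07 at 4 h (SE 0.024, adjusted p = 0.021).

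The catalytic head subunits alpha and beta, encoded by Atp5a1 and Atp5b, differed by 0.08 (SE 0.067) and 0.02 (SE 0.031) at 24 h and did not pass the threshold. Atp5d, the delta subunit of the central stalk, rose by 0.13 at 4 h (SE 0.027, adjusted p = 2.6e-05) and was 0.21 lower at 24 h than at 4 h on the log2 scale (difference -0.21, SE 0.027, adjusted p = 7.2e-09). Atp5pb, subunit b of the peripheral stalk, differed the other way, falling by 0.12 at 4 h (SE 0.027, adjusted p = 0.0003) and then rising by 0.07 between 4 h and 24 h (SE 0.028, adjusted p = 0.036).

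**Figure D2:**
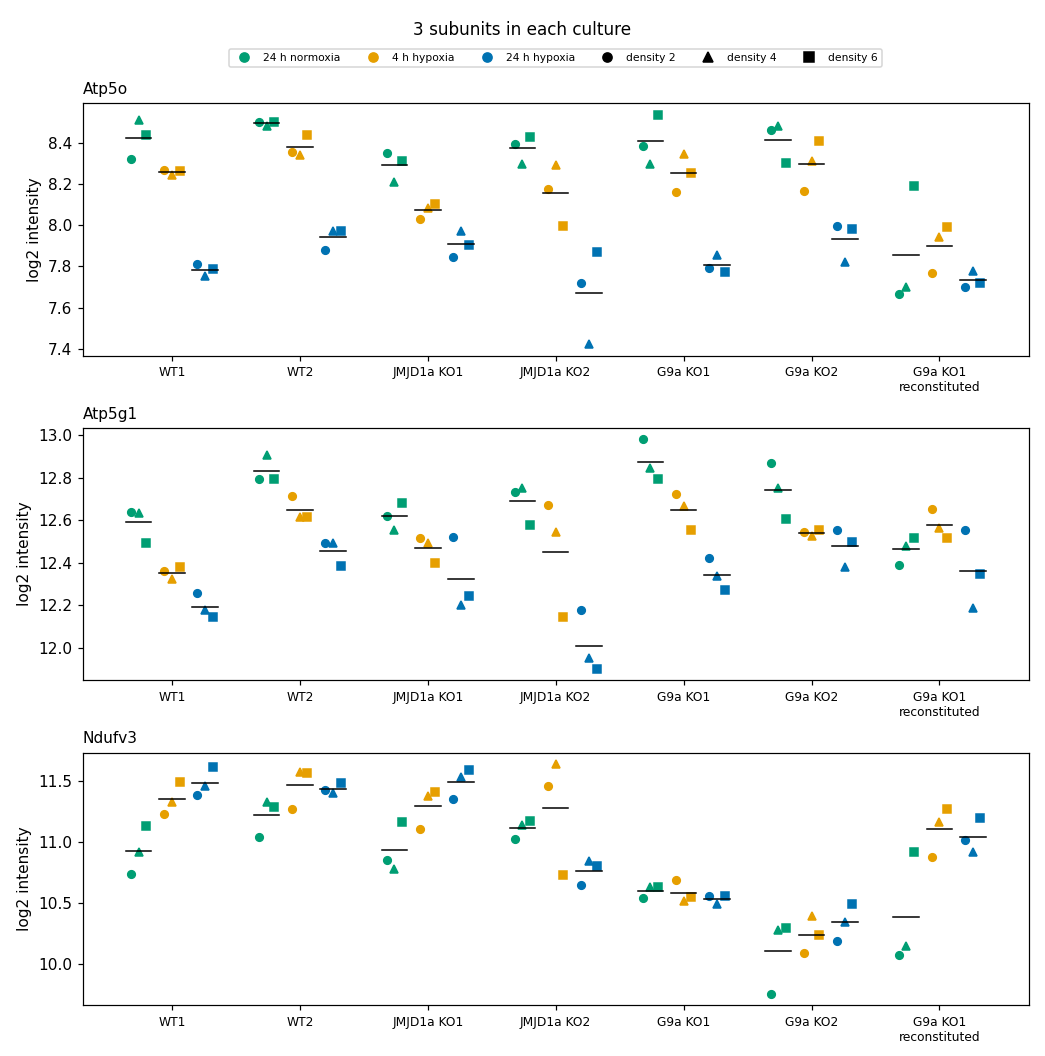
Log2 intensity (vertical axis) of Atp5o, Atp5g1 and Ndufv3 in each of the 63 cultures, by line, with exposure as colour and seeding density as shape; black lines are means of 3 cultures. Atp5o falls from a normoxic median of 8.38 to 7.82 at 24 h, and Ndufv3 is low in the cultures of JMJD1a KO2 measured in the fifth array set.

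Complex I, the NADH dehydrogenase, had 7 subunits lower and 3 higher among 34 at 24 h, counted by symbol, with Ndufa4 among the 3. Over all tested genes 26.2% were lower and 25.9% higher. Ndufv1, the core subunit that binds NADH, fell most in complex I. Ndufv1 ran from 11.42 through a median of 11.72 to 12.00 in normoxia, from 11.50 through 11.73 to 11.95 at 4 h and from 11.28 through 11.45 to 11.64 at 24 h. Its level at 4 h was that of normoxia (difference -0.02, SE 0.025), and at 24 h it had fallen by 0.22 (SE 0.032, adjusted p = 6.3e-08). Ndufs8 fell by 0.13 (SE 0.033, adjusted p = 0.00072) and Ndufs7 by 0.11 (SE 0.038, adjusted p = 0.017), while Ndufs3 at -0.02 (SE 0.033) and Ndufv2 at 0.02 (SE 0.035) did not pass the threshold.

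Ndufv3, a small accessory subunit beside the NADH-binding site, was the member that rose most in hypoxia. It ran from 9.76 through a median of 10.86 to 11.33 in normoxia, from 10.09 through 11.24 to 11.64 at 4 h and from 10.19 through 11.02 to 11.62 at 24 h. The spread between lines was larger than the change, and inside 1 array set the mean was higher at 4 h than in normoxia in 6 of 6 lines. The fitted difference was 0.35 at 4 h (SE 0.038, adjusted p = 2.3e-11) and 0.42 at 24 h (SE 0.049, adjusted p = 4e-10). A second bright Ndufv3 probe differed by 0.27 at 24 h (adjusted p over probes = 1.4e-06) and 0.23 at 4 h, whereas another, dim probe differed by -0.07 at 24 h (adjusted p over probes = 0.65) and by 0.41 at 4 h.

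Ndufs4, an accessory subunit needed for a stable NADH-binding module, rose by 0.16 at 24 h (SE 0.041, adjusted p = 0.00081) and by 0.09 at 4 h (SE 0.032, adjusted p = 0.013). Its 3 other probes differed by 0.05 to 0.10 at 24 h and none passed the threshold. Ndufa4, first described in complex I and now assigned to complex IV, rose by 0.11 at 24 h (SE 0.037, adjusted p = 0.012), and without the array-set term the difference was 0.05 (adjusted p = 0.16). At 4 h 8 of 34 complex I subunits rose, against 24.6% of all tested genes higher. Next after Ndufv3 were Ndufb2 at 0.17 (SE 0.039, adjusted p = 0.00025) and Ndufa3 at 0.10 (SE 0.027, adjusted p = 0.002). Without the array-set term both lost their call, with adjusted p = 0.19 for each.

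In complex II only Sdhb, Sdhc and Sdhd were measured. Sdhb, the iron-sulfur subunit, ran from 9.28 through a median of 9.66 to 9.86 in normoxia and from 9.28 through 9.40 to 9.69 at 24 h. It fell by 0.14 at 24 h (SE 0.041, adjusted p = 0.0047), and a second Sdhb probe fell by 0.20 (adjusted p over probes = 5.9e-05). The membrane anchors Sdhc at -0.04 (SE 0.037) and Sdhd at 0.11 (SE 0.082) did not pass at 24 h, and Sdhc rose by 0.07 at 4 h (SE 0.028, adjusted p = 0.024). Sdha is not analysed here.

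Complex III had 5 subunits lower and 1 higher among 8 at 24 h, against 26.2% of all tested genes lower and 25.9% higher. Cyc1, the cytochrome c1 that hands electrons to cytochrome c, ran from 10.40 through a median of 10.72 to 10.88 in normoxia, from 10.24 through 10.50 to 10.75 at 4 h and from 10.06 through 10.45 to 10.75 at 24 h. It was lower at 4 h than in normoxia in all 6 lines that could be compared inside 1 set, by 0.18 in the fit (difference -0.18, SE 0.030, adjusted p = 1.5e-06). At 24 h the difference was -0.22 (SE 0.039, adjusted p = 7.6e-06). The core proteins Uqcrc1 and Uqcrc2 were near their normoxic level at 4 h (0.04 and less than 0.01) and fell by 0.14 (SE 0.035, adjusted p = 0.00082) and by 0.11 (SE 0.035, adjusted p = 0.011) at 24 h. The small subunit Uqcrb rose by 0.12 at 24 h (SE 0.049, adjusted p = 0.032), a call that was lost without WT2 (0.06, adjusted p = 0.29).

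Complex IV, cytochrome c oxidase, had 6 of 14 tested subunits lower and none higher at 24 h, counted by symbol. Ndufa4, counted with complex I, rose. Over all tested genes 26.2% were lower and 25.9% higher. The lower subunits of complex IV include genes of several isoform pairs. Of the Cox6b pair, Cox6b2, the isoform described in testis, ran from 6.83 through a median of 7.28 to 8.35 in normoxia, from 6.26 through 7.18 to 7.69 at 4 h and from 6.35 through 7.09 to 7.61 at 24 h. The ranges overlap, and inside 1 set its mean was lower at 4 h than in normoxia in 6 of 6 lines. It fell by 0.31 at 24 h (SE 0.073, adjusted p = 0.00037) and by 0.21 at 4 h (SE 0.056, adjusted p = 0.0012). The general isoform Cox6b1 fell by 0.15 at 24 h (SE 0.043, adjusted p = 0.0036), with a difference of 0.04 at 4 h that did not pass.

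Among the Cox7a genes, Cox7a2l, which joins complexes III and IV into supercomplexes, ran from 9.69 through a median of 10.06 to 10.26 in normoxia, from 9.56 through 9.87 to 10.02 at 4 h and from 9.58 through 9.82 to 10.01 at 24 h. Its fall was already present at 4 h (difference -0.21, SE 0.028, adjusted p = 2.4e-08) and was of the same size at 24 h (-0.22, SE 0.037, adjusted p = 1.6e-06). Cox7a1, the heart and muscle isoform, fell by 0.20 at 24 h (SE 0.046, adjusted p = 0.00024) and differed by -0.04 at 4 h. Cox7a2, the general isoform, differed by 0.01 at 24 h (SE 0.050) after a rise of 0.10 at 4 h (SE 0.039, adjusted p = 0.027).

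Cox4i1, the general isoform of subunit IV, fell by 0.10 at 24 h (SE 0.040, adjusted p = 0.032). Its alternative Cox4i2, which HIF-1 is known to raise in other cells, was at the array minimum on all 63 arrays, in hypoxia as in normoxia. The striated muscle isoforms Cox6a2 and Cox8b were also at the minimum on every array, and Cox8c, described in testis, was above it on 4 arrays. Their general counterparts Cox6a1 at -0.08 (SE 0.038) and Cox8a at less than 0.01 (SE 0.043) did not pass the threshold at 24 h. The complex I gene Ndufs1 and the complex III gene Uqcrq were listed at the minimum on all 63 arrays too, although their proteins are needed in every respiring cell, so a value at the minimum is no evidence that a gene was silent. Ndufa4l2 is not analysed here.

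At 4 h 14 subunits rose and 8 fell (18.7% and 10.7%), against 24.6% of all tested genes higher and 25.1% lower. Without the array-set term 10 rose and 11 fell (51.4% of all genes called), and with the set as a random block 13 rose and 13 fell (51.8%). Between 4 h and 24 h 34 subunits fell and 2 rose (45.3% and 2.67%), against 27.5% lower and 25.7% higher over all genes, and the median difference was -0.07 for the members and -0.01 for all genes. The 4 h and 24 h comparisons share the normoxic cultures, and the last one shares the hypoxic ones. The largest falls between 4 h and 24 h beside Atp5o were those of Ndufb4 (-0.25, SE 0.063, adjusted p = 0.00091), Ndufb2 (-0.22, SE 0.040, adjusted p = 1e-05), Atp5d and Ndufv1 (-0.21, SE 0.025, adjusted p = 1.4e-09). Without the array-set term the Ndufb4 difference was 7.12e-05 and that of Ndufb2 was -0.14 (adjusted p = 0.28). Ndufa4 rose by 0.08 (SE 0.029, adjusted p = 0.02) and lost its call without the term (0.03, adjusted p = 0.46).

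Genes that act around the complexes were counted beside them, where 26.2% of all tested genes were lower and 25.9% higher at 24 h. Of 35 tested assembly factors 22 fell and 1 rose at 24 h with a median of -0.13, led by Sdhaf1 (-0.41, SE 0.060, adjusted p = 1.1e-07), Foxred1 (-0.41, SE 0.038, adjusted p = 9.5e-13) and Cox19 (-0.37, SE 0.047, adjusted p = 3.4e-09), which serve complexes II, I and IV. Of 18 genes of mitochondrial DNA and biogenesis 9 fell and 4 rose, and Ppargc1b, a coactivator of mitochondrial genes, fell by 0.45 (SE 0.105, adjusted p = 0.00031) while Nrf1 rose by 0.32 (SE 0.050, adjusted p = 6.6e-07). Of 11 cytochrome c and coenzyme Q genes 4 fell and 1 rose. Of 19 genes of pyruvate oxidation and the citric acid cycle 6 fell and 5 rose, with Pdk1, the kinase that blocks pyruvate dehydrogenase, up by 0.59 (SE 0.060, adjusted p = 9.1e-12) and Pdha1, a subunit of that enzyme, down (-0.52, SE 0.040, adjusted p = 1.7e-15).

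For scale, 14 of 17 known hypoxia responders rose and none fell at 24 h, with a median of 0.88. The glucose transporter Slc2a1 rose by 1.14 (SE 0.054, adjusted p = 8.2e-24) and Bnip3 by 0.40 (SE 0.144, adjusted p = 0.016). The shares over all tested genes, for these and the following lists, were 26.2% lower and 25.9% higher. Markers of stem cell state moved with the same exposures: 10 of 15 pluripotency markers fell and 2 rose at 24 h, with a median of -0.23, and 6 of 10 tested lineage markers rose, with a median of 0.45. The mean log2 level of the pluripotency list ran from 10.13 to 11.41 in normoxia and from 9.85 to 11.29 at 24 h, and that of the lineage list from 5.40 to 6.34 and from 6.09 to 7.15. Their part in the subunit changes was not tested. The RNA was pooled over each plate, so less RNA per cell and fewer cells of one kind cannot be told apart.

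Within single genotypes the same exposures gave fewer calls. In wild-type cells 13 of 75 subunits fell and 3 rose at 24 h, against 18% of all genes lower and 17.9% higher. In Jmjd1a knockout cells 3 fell and 2 rose (6.98% and 8.74% of all genes), 1 of the latter being Cox7b2, which is at the array minimum in normoxia. In G9a knockout cells 8 fell and none rose (8.64% and 10.8%), and in the reconstituted line 7 fell and none rose (9.84% and 10.2%). In the knockout lines normoxia and 24 h hypoxia lay in different array sets. The 24 h cultures of JMJD1a KO1 and the normoxic cultures of G9a KO2 shared a set with no other exposure of their line. They therefore do not enter these differences in the fit. For Jmjd1a knockout cells the 24 h cultures used are those of JMJD1a KO2, and for G9a knockout cells the normoxic ones are those of G9a KO1. In JMJD1a KO2 and G9a KO1 the fit joined normoxia and 24 h through 4 h cultures that shared a set with each. Each of these joins ran through 1 culture. In JMJD1a KO2 the 24 h cultures shared a set with 1 culture of 4 h, and in G9a KO1 the normoxic cultures shared a set with 1 culture of 4 h. In the reconstituted line 1 normoxic culture shared a set with the hypoxic ones. The 24 h values for both knockouts and the reconstituted line, and the 4 h values for G9a knockout cells and the reconstituted line, thus depend on 1 culture each. That culture is assumed to vary like those of the other groups, and these adjusted p-values do not measure its own spread. The SE for Atp5o was 0.064 in wild-type cells and 0.117 in either knockout.

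**Figure D3:**
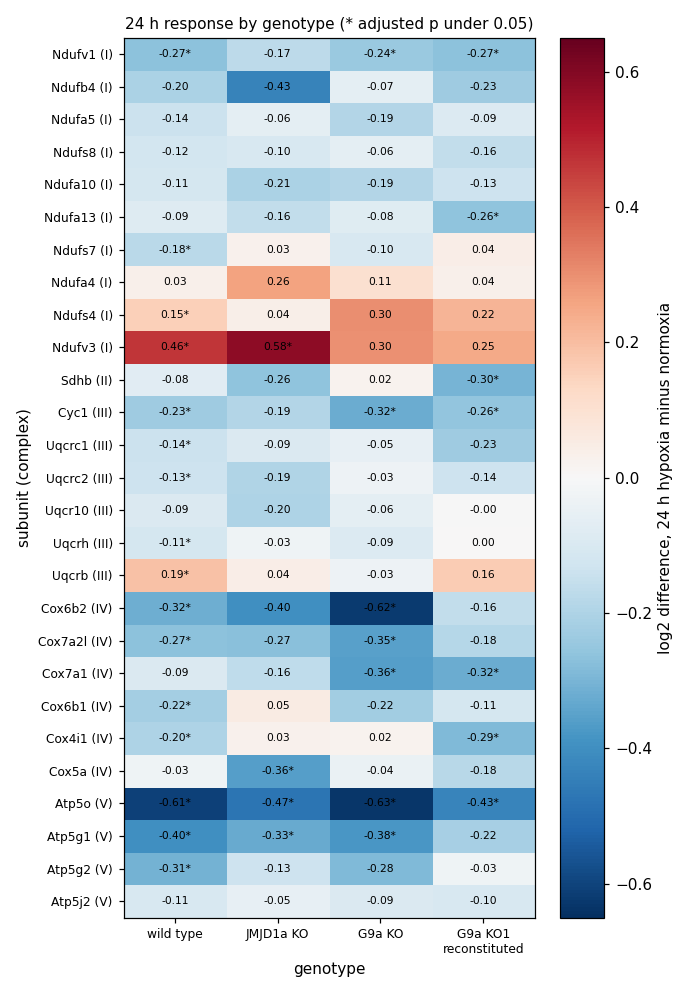
Log2 difference between 24 h hypoxia and normoxia (colour and printed value) in each genotype for the 27 subunits called over all lines; an asterisk marks an adjusted p under 0.05 in that genotype. Atp5o was lower in all 4 genotypes, from -0.43 to -0.63. The Jmjd1a knockout values use the 24 h cultures of JMJD1a KO2 only.

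Atp5o fell in each of the 4 genotypes at 24 h. The differences were -0.61 in wild-type cells (adjusted p = 2.2e-10), -0.47 in Jmjd1a knockout cells (adjusted p = 0.0037), -0.63 in G9a knockout cells (adjusted p = 0.0001) and -0.43 in the reconstituted line (adjusted p = 0.0022). The last value sets the 3 cultures at 24 h against the 1 normoxic culture of the eighth set. In wild-type cells it ran from 8.32 through a median of 8.49 to 8.51 in normoxia and from 7.75 through 7.85 to 7.97 at 24 h, so the groups did not overlap. In G9a knockout cells it ran from 8.30 through 8.42 to 8.54 and from 7.77 through 7.84 to 8.00, again without overlap.

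Atp5g1 fell in wild-type cells (-0.40, SE 0.061, adjusted p = 1.1e-06), Jmjd1a knockout cells (-0.33, SE 0.111, adjusted p = 0.038) and G9a knockout cells (-0.38, SE 0.111, adjusted p = 0.013), and differed by -0.22 in the reconstituted line without passing. Ndufv3 rose in wild-type cells (0.46, SE 0.073, adjusted p = 1.7e-06) and Jmjd1a knockout cells (0.58, SE 0.133, adjusted p = 0.0016), and its values of 0.30 in G9a knockout cells and 0.25 in the reconstituted line did not pass. Cox6b2 fell in wild-type cells (-0.32, SE 0.111, adjusted p = 0.021) and G9a knockout cells (-0.62, SE 0.204, adjusted p = 0.026). Ndufs4 (0.15, SE 0.062, adjusted p = 0.05, just under the threshold) and Uqcrb (0.19, adjusted p = 0.039) rose in wild-type cells. The wild-type value of Ndufs4 was 0.41 without WT1 and -0.0053 without WT2. In JMJD1a KO2 the Ndufv3 level itself was lower at 24 h (10.65 to 10.85, in the fifth set) than in normoxia (11.03 to 11.17, in the fourth set), and its 1 culture of 4 h in the fifth set was at 10.73.

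Cox5a, one of the small nuclear subunits of complex IV, fell by 0.36 in Jmjd1a knockout cells (SE 0.104, adjusted p = 0.014), through the 24 h cultures of JMJD1a KO2 only. Against the 1 normoxic culture of the same set, in the reconstituted line Cox7a1 (-0.32, SE 0.111, adjusted p = 0.032) and Sdhb (-0.30, SE 0.096, adjusted p = 0.02) fell, and without the array-set term the Cox7a1 value turned to 0.037. Counts in the knockout and reconstituted lines depended on the same term: without it 46 subunits were called in Jmjd1a knockout cells, 29 in G9a knockout cells and 21 in the reconstituted line. Over all lines 63% of all genes were called at 24 h without the term. The share is not given here for single genotypes, so these counts show nothing particular to the subunits.

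At 4 h 7 subunits fell and 6 rose in wild-type cells, against 17.7% of all genes lower and 17.9% higher. These 13 calls became 4 without WT1, 7 without WT2 and 6 without the array-set term. In Jmjd1a knockout cells 4 fell and 9 rose (15.9% and 16.4% of all genes), in G9a knockout cells 2 fell (4.87% and 7.15%), and in the reconstituted line 1 fell and 1 rose (7.2% and 8.3%). The 13 Jmjd1a knockout calls became 8 without JMJD1a KO1, 6 without JMJD1a KO2 and 8 without the array-set term, while without that term the calls were 10 in G9a knockout cells and 22 in the reconstituted line. Over all lines 51.4% of all genes were called at 4 h without the term, and the share is not given here for single genotypes. Ndufv3 rose by 0.34 in wild-type cells (SE 0.058, adjusted p = 7.7e-06) and by 0.43 in Jmjd1a knockout cells (SE 0.061, adjusted p = 2.9e-07). Atp5d rose by 0.15 in both (SE 0.041 and 0.043, adjusted p = 0.0031 and 0.0045). Ndufb2 rose by 0.23 in wild-type cells (SE 0.060, adjusted p = 0.0024), and Cox7c, another small complex IV subunit, rose by 0.15 in Jmjd1a knockout cells (SE 0.036, adjusted p = 0.0011). Among the falls, Atp5g1 gave -0.21 in wild-type cells (SE 0.049, adjusted p = 0.00054), Atp5o -0.18 in Jmjd1a knockout cells (SE 0.054, adjusted p = 0.0091) and Cox6b2 -0.54 in G9a knockout cells (SE 0.180, adjusted p = 0.04, from 1 culture of 4 h in G9a KO1). Cox7a2l fell in wild-type (-0.19, SE 0.043), Jmjd1a knockout (-0.16, SE 0.046) and G9a knockout cells (-0.37, SE 0.088), with adjusted p between 0.0004 and 0.0052. Cyc1 fell by 0.17 in wild-type cells (SE 0.047, adjusted p = 0.004), by 0.14 in Jmjd1a knockout cells (SE 0.050, adjusted p = 0.027) and by 0.34 in the reconstituted line (SE 0.095, adjusted p = 0.01). Atp5k, the e subunit of the ATP synthase membrane part, rose there by 0.72 (SE 0.188, adjusted p = 0.0056), and without the array-set term the value was -1.32.

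The responses of the genotypes were also compared directly. At 24 h the difference between Jmjd1a knockout and wild-type responses was called for 1 subunit (0.778% of all genes), that between G9a knockout and wild-type responses for 1 (4.22%), and that between reconstituted and G9a knockout responses for 1 (2.43%). In each case the subunit was Cox7b2, which lies at the array minimum in all 18 wild-type cultures and in 8 of 9 reconstituted ones, so that these calls compare a measured response with none that could be measured. At 4 h limma called no member between knockout and wild-type responses, against 0.0458% of all genes for Jmjd1a and 0.87% for G9a. At an unadjusted p under 0.05 these comparisons gave 0 and 3 of 75. The subunits that pass in one genotype and miss in another are therefore not shown to differ between them.

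Cox7b2, a complex IV subunit described in testis, was seen above the array minimum mainly in G9a knockout cells. It was at the array minimum, a log2 intensity of 4.32, in all 18 wild-type cultures and in all 9 cultures of JMJD1a KO1. In the 18 G9a knockout cultures it ran from 6.06 through a median of 7.37 to 8.54. In the reconstituted line it was at the minimum in 8 of 9 cultures and at 4.37 in the other, so no reconstituted culture reached the G9a knockout range.

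**Figure D4:**
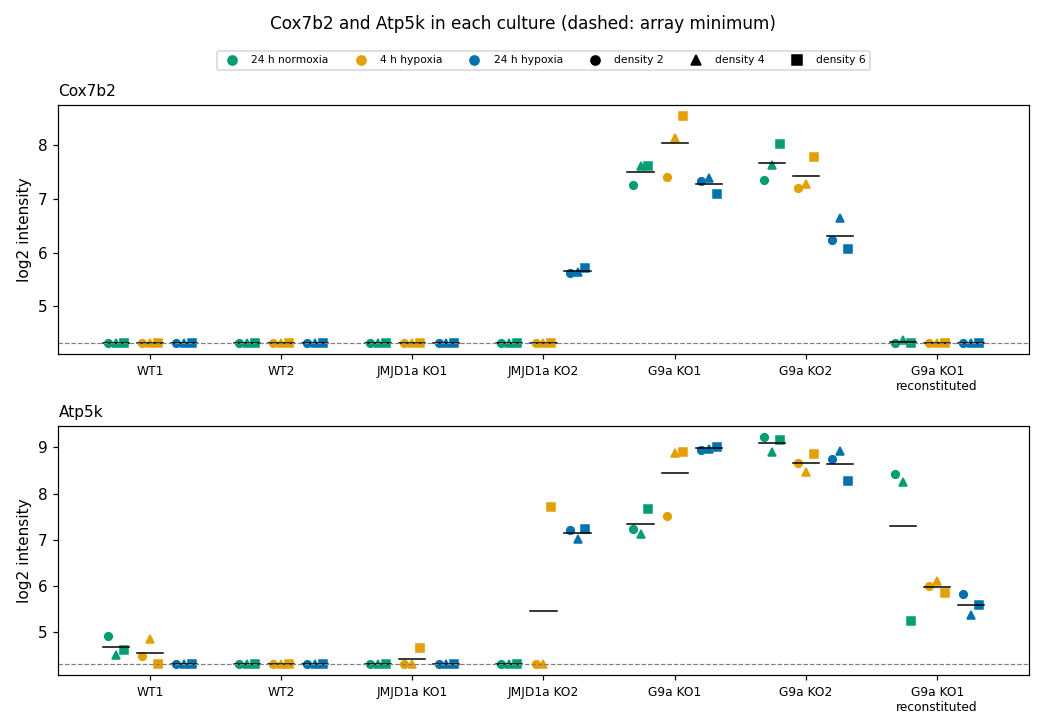
Log2 intensity (vertical axis) of Cox7b2 and Atp5k in each of the 63 cultures, by line, with exposure as colour and seeding density as shape; black lines are means of 3 cultures and the dashed line is the array minimum. Cox7b2 lies above the minimum in all 18 G9a knockout cultures and in the 3 cultures of JMJD1a KO2 at 24 h, and Atp5k steps inside single lines.

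Because the wild-type values lie at the minimum, only a lower bound can be given for the fold. It sets the G9a knockout mean against the mean of the lowest signal above the minimum on each wild-type array. In normoxia Cox7b2 was at least 8.55-fold higher in G9a knockout than in wild-type cells (measured means 7.59 and 4.32, n = 6 each). At 4 h it was at least 9.81-fold higher, and at 24 h at least 5.15-fold higher (measured means 6.79 and 4.32). Against the reconstituted line in normoxia, Cox7b2 in G9a KO1 was at least 8.74-fold higher (n = 3 each), with the lines in different array sets. Cox7b2 passed the filter on low values only through cultures in which it is high, so these folds are given as a description, with no test.

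Inside the seventh array set, Cox7b2 ran from 6.06 to 7.79 in 6 cultures of G9a KO2, all kept in hypoxia, and was 4.32 and 4.37 in the 2 normoxic cultures of the reconstituted line, which derives from the other G9a knockout line. In the fifth set it ran from 7.26 to 7.62 in 4 cultures of G9a KO1. The 4 JMJD1a KO2 cultures of that set held 5.63 to 5.71 in the 3 kept for 24 h in hypoxia and the minimum in the 1 kept for 4 h. The other 5 JMJD1a KO2 cultures, in the fourth set, were all at the minimum.

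Within G9a knockout cells, where all 18 cultures were above the minimum, Cox7b2 was lower at 24 h than at 4 h of hypoxia. In G9a KO1 the 2 cultures of 4 h in the sixth set were at 8.14 and 8.54 and the 3 of 24 h ran from 7.09 to 7.39. In G9a KO2, in the seventh set, it ran from 7.21 to 7.79 at 4 h and from 6.06 to 6.65 at 24 h, so these exposures did not overlap within either set, and the fitted difference was -1.08 (SE 0.083, adjusted p = 1.2e-14). Against normoxia the fitted difference at 24 h was -1.12 (SE 0.180, adjusted p = 1.3e-05), but it runs through the 1 culture of 4 h in the fifth set (7.42). Cox7b2 was above the minimum on only 22 of 63 arrays, and the arrays at the minimum enter the pooled spread. The SE and adjusted p of both fitted differences thus do not measure the spread of the G9a knockout cultures. The levels of G9a KO1 overlapped, with 7.26 to 7.62 in normoxia and 7.09 to 7.39 at 24 h, in different sets. In JMJD1a KO2 it was at least 2.26-fold higher at 24 h than in normoxia (n = 3 each, in different sets), while in JMJD1a KO1 all 3 cultures at 24 h were at the minimum.

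Levels were compared between genotypes on line means, 2 lines against 2. No subunit was called by limma between Jmjd1a knockout and wild-type cells in normoxia or at 24 h, against 0.0114% of all genes in each, and 1 of 75 had an unadjusted p under 0.05 in each. Without JMJD1a KO1, 12 were called at 24 h. In G9a knockout cells 4 were higher and 8 lower than in wild-type cells in normoxia, against 7.36% of all genes higher and 16.1% lower, and the 4 include Cox7b2 and Atp5k, whose wild-type values lie at or near the array minimum. At 24 h 2 were higher and 2 lower, against 3.25% and 3.54%, and the 2 higher include Uqcrfs1, above the minimum on 29 of 63 arrays. Genes this dim can pass the filter on low values through cultures in which they are high. The calls of Cox7b2, Atp5k and Uqcrfs1 as higher are thus given as a description. The counts for normoxia were 31 without WT1 and 3 without WT2, and at 24 h no subunit was called when any 1 line was left out. The shares over all genes are not given here for the fits with a line left out, so their counts show nothing particular to the subunits. The median difference over all genes was -0.12 in normoxia and -0.13 at 24 h, and -0.10 for the members in both. These comparisons set arrays of different sets against each other.

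Cox6b1 ran from 11.38 through a median of 11.80 to 12.24 in the 18 wild-type cultures and from 10.04 through 10.30 to 10.75 in the 18 G9a knockout cultures, and the groups did not overlap. The difference in normoxia was -1.30 (SE 0.161, adjusted p = 0.02). Cox6b1 also ran from 11.88 to 12.14 in JMJD1a KO2 cultures of the fourth set and from 11.01 to 11.21 in those of the fifth. Ndufb7, a complex I accessory subunit, was lower by 0.90 (difference -0.90, SE 0.068, adjusted p = 0.011), with 7.83 to 8.21 in wild-type and 6.70 to 7.49 in G9a knockout cultures. The reconstituted line lay at 7.15 to 7.54, within or just above the knockout range.

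Ndufs6, which holds a zinc site in complex I, was lower in G9a knockout cells (-0.78, SE 0.104, adjusted p = 0.022). In the reconstituted line Ndufs6 was 11.65 in both cultures of the seventh set, inside the knockout range of 11.55 to 11.94, and 12.24 to 12.43 in the 7 cultures of the eighth. Ndufa13, an accessory subunit also known as GRIM-19, was lower in G9a knockout cells in normoxia (-0.67, SE 0.077, adjusted p = 0.019) and at 24 h (-0.75, SE 0.115, adjusted p = 0.045). It ran from 11.65 through a median of 11.95 to 12.15 in the knockout cultures, from 12.49 through 12.65 to 12.84 in the wild-type cultures and from 12.16 through 12.38 to 12.59 in the reconstituted line. Of the subunits higher in G9a knockout cells, Ndufs4 ran from 12.19 to 12.57 against 10.39 to 11.44 in wild-type cells (difference in normoxia 1.41, SE 0.307, adjusted p = 0.045), and it stayed at 11.96 to 12.20 in the reconstituted line.

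Several members stepped with the array set inside single lines, and their genotype values cannot be told apart from the set. Atp5k was at the minimum in all 5 JMJD1a KO2 cultures of the fourth set and at 7.02 to 7.72 in the 4 of the fifth. It was 8.24 and 8.43 in the 2 reconstituted cultures of the seventh set and 5.26 to 6.12 in the 7 of the eighth. It was above the minimum in 5 of 18 wild-type cultures, none over 4.93, and at 7.13 to 9.22 in all 18 G9a knockout cultures.

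Ndufb4, a complex I accessory subunit, ran from 7.97 to 8.50 in 8 WT1 cultures of the first set and was 4.96 in the WT1 culture of the second. In WT2 it ran from 5.45 to 5.93 in the second set and was 7.02 and 7.48 in the third. In JMJD1a KO2 it ran from 5.85 to 6.63 in the fourth set and from 9.94 to 10.45 in the fifth. Uqcrfs1, the Rieske iron-sulfur protein of complex III and 1 of the 2 called higher at 24 h, was 4.92 to 6.23 in the G9a knockout and at most 4.62 in wild-type cultures, and in the reconstituted line was 5.45 and 5.80 in the seventh set but at most 4.57 in the eighth.

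Between the reconstituted line and its parent G9a KO1 in normoxia, 17 subunits were lower and 3 higher, against 13.3% of all genes lower and 14.9% higher. Beside Cox7b2 the largest falls were those of Ndufb10 (-0.57, SE 0.205, adjusted p = 0.032) and Atp5o (-0.55, SE 0.090, adjusted p = 3.9e-06). Cox6b2 was higher by 0.67 (SE 0.165, adjusted p = 0.0013), Ndufa13 by 0.46 (SE 0.059, adjusted p = 2.5e-08) and Cox4i1 by 0.35 (SE 0.070, adjusted p = 8.6e-05). The lines were measured in different sets, and this comparison has no set term. It sets 1 line against 1 line, so its p-values do not measure the spread between lines. In the reconstituted line Atp5o was 7.67 and 7.70 in the seventh set and 8.19 in the eighth, all in normoxia.

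With seeding density many subunits rose, by small steps. Per added 200000 cells 36 of 75 subunits rose and 2 fell (48% and 2.67%), against 17.5% of all tested genes higher and 19.6% lower. The median log2 change was 0.03 for the members and less than 0.01 in size over all genes. Complex I had 19 of 34 subunits higher and 1 lower, complex IV 7 of 14 higher, complex V 5 of 16 higher and 1 lower, complex III 3 of 8 higher and complex II 2 of 3 higher.

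Cox7a1 ran from 7.50 through a median of 8.20 to 8.53 at 200000 cells, from 7.81 through 8.27 to 8.72 at 400000 and from 7.74 through 8.41 to 8.82 at 600000. The densities overlap across lines, but in 16 of 16 series of 3 densities that lay in 1 array set the culture at 600000 cells was higher than that at 200000. Its slope was 0.11 per added 200000 cells (SE 0.016, adjusted p = 5.3e-07). Cox6b2 rose by 0.13 (SE 0.025, adjusted p = 7.7e-05; higher in 13 of 16 series) and Ndufv3 by 0.12 (SE 0.017, adjusted p = 9.1e-08; higher in 15 of 16 series).

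Atp5g1 fell by 0.06 per added 200000 cells (SE 0.014, adjusted p = 0.00031) and was higher at 600000 cells in 3 of 16 series. Ndufa5, a complex I accessory subunit, fell by 0.04 (SE 0.013, adjusted p = 0.0089). The other subunit c genes gave 0.07 for Atp5g2 (SE 0.017, adjusted p = 0.0011) and -0.02 for Atp5g3 (SE 0.012), which did not pass. Hypoxia responders moved with density as well: 15 of 17 rose and none fell, against 17.5% of all tested genes higher and 19.6% lower. The median of these responders was 0.11 per added 200000 cells. Their part in the density results was not tested.

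**Figure D5:**
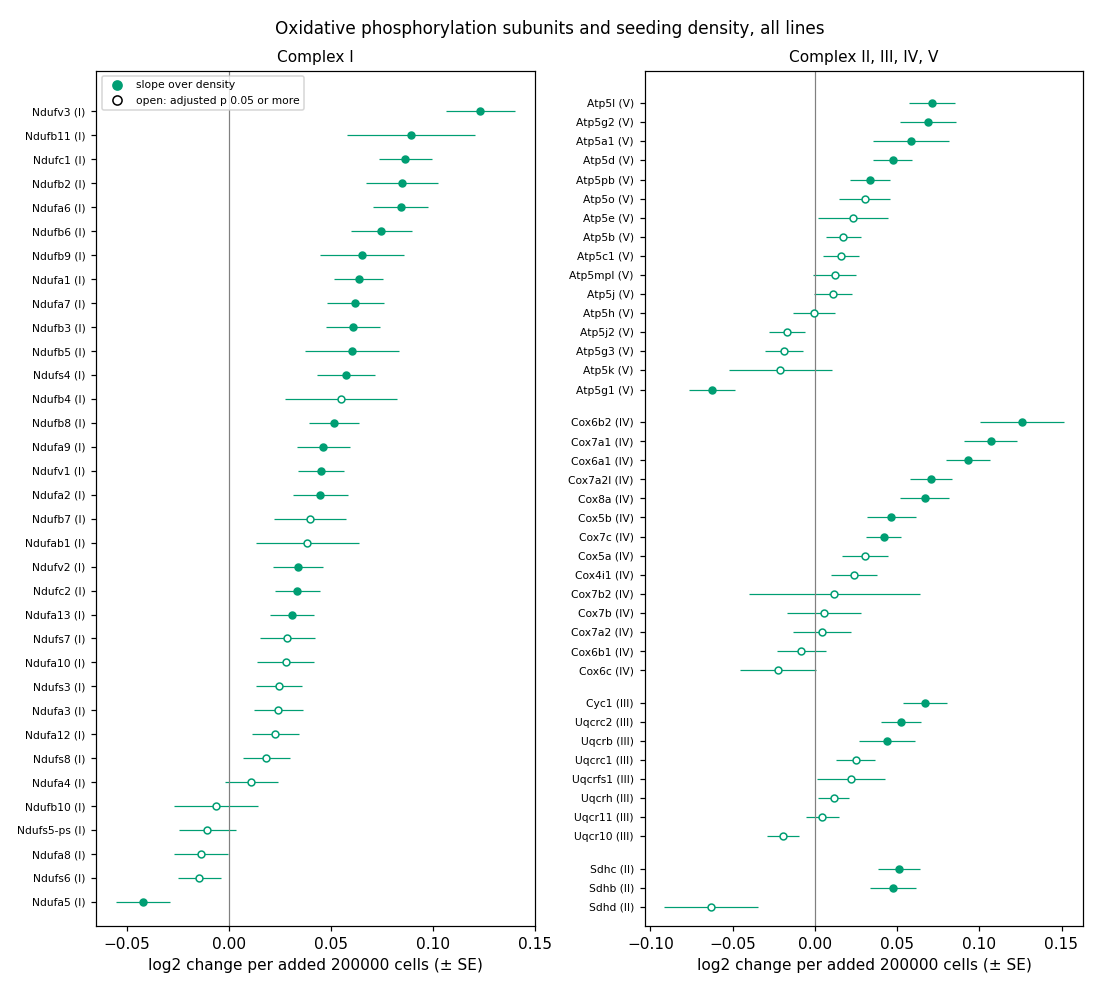
Log2 change per added 200000 cells per plate (horizontal axis, with SE) for each of the 75 tested subunits, grouped by complex, over 7 lines and 3 exposures. Filled points have an adjusted p under 0.05; 36 lie to the right of 0 and 2, Atp5g1 and Ndufa5, to the left.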

How the data were processed

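Each culture was measured on 1 Illumina BeadChip. The authors' deposited values are linear intensity per probe, with a lowest value of 20 on every array. BeadStudio is named in the submitters' processing notes, without its settings. A companion table with 63 signal and 63 detection columns was not used, since no label ties its columns to cultures. Here intensities were converted to log2, quantile normalization was applied across arrays, and a common minimum of 4.32 was set. Probes above it in every culture of at least 1 line and exposure were kept (12754 of 25697, of which 1719 carry no gene symbol), and the brightest probe stood for each gene.

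Exposure and density were tested with limma 3.58.1 (R 4.3.3) with 14 blocks of line and array set, with Benjamini-Hochberg adjustment over 8740 genes at 0.05. Sets are runs of 8 arrays in deposit order (7 in the last), inferred from steps in total intensity. Levels in knockout and wild-type cells were compared on line means. The reconstituted line against G9a KO1, and the responses of genotypes, were compared on single cultures. Deviations of cultures of the same line and density correlated between -0.15 and 0.39 over 63 pairs, so they were not treated as pairs. Alternatives changed the set term, scaling, filter and probe rule, or left out lines, densities or 1 array. The code was tested on simulated data.

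Members, gene lists and tests were chosen with earlier results of these data known. Full values go to the largest called changes in each direction (5 over all lines, 3 in single genotypes and for density, up to 5 between genotypes) and to isoform sets; further members were named after their values were seen, to describe a complex or a step between sets. Ndufs5-ps is a pseudogene symbol. The number of arrays limits the precision.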

Additional observations from a re-analysis of the deposited data

Results flagged for a closer look

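Among 17 subunits and 148 groups of 6 cultures, 4 cultures stood apart from the rest of their group by Dixon's test. Its nominal rate of about 1 in 20 groups does not hold here, because each group joins 2 lines and more than 1 array set. Uqcrb was 12.46 in the G9a KO1 culture at 4 h and 200000 cells, the next lowest culture being 12.78, and this culture lay in a different array set from the other 4 h cultures of its line. Atp5o was 8.32 in the WT1 normoxic culture at 200000 cells, below the next at 8.44. Cox6b2 was 7.42 in the JMJD1a KO2 normoxic culture at 600000 cells, above the next at 7.12. Atp5pb was 10.05 in the G9a KO2 culture at 24 h and 600000 cells, above the next at 9.79.

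The fitted 24 h response of Cox7b2 was called different between genotypes. The fitted difference was 1.35 between Jmjd1a knockout and wild-type cells, -1.15 between G9a knockout and wild-type cells and 1.16 between the reconstituted line and G9a knockout cells. Wild-type and most reconstituted values lie at the array minimum, so no response could be measured there, and the values are neither bounds nor a test of a difference between responses. Arrays at the minimum also enter the pooled spread, so the adjusted p-values below do not measure that of the cultures compared. With the 3 exposures of a line and density as a replicate block the adjusted p-values were 0.175, 0.0446 and 0.0736, against 5.9e-05, 0.00026 and 0.0024.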

How the results depend on the processing

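Several counts changed with the way the array set was handled. Shares over all genes are not given beside the counts in this section, so the counts describe the processing and are not set against a background. Of 20 counts under their alternatives, 160 values stayed within 1.5 times the main count and 51 did not; values of named subunits kept direction and call in 794 cases, lost the call in 141 and reversed in 8. Without the set term the 24 h calls were 42 over all lines, 46 for Jmjd1a knockout, 29 for G9a knockout and 21 for the reconstituted line, and the 4 h calls were 6 in wild-type, 8, 10 and 22. The genotype differences at 24 h then gave 4 (Jmjd1a against wild type), 4 (G9a against wild type) and 26 (reconstituted against knockout). With the set as a random block (correlation 0.709), 24 h calls were 48 over all lines, 21 for Jmjd1a and 17 for G9a knockout, and 4 h calls were 8 and 5. The replicate block of line and density gave 35, 26 and 15 calls at 24 h for the knockouts and the reconstituted line, 5, 5, 7 and 16 at 4 h for the 4 genotypes, and 0 and 17 for the Jmjd1a and reconstituted differences; density has no value under this block. The numbers pair no cultures (lowest correlation -0.15).

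Unscaled values gave 3 (24 h) and 1 (4 h) calls in the reconstituted line. With no filter there were 7 for Jmjd1a knockout at 4 h, 2 each for the G9a and reconstituted differences, 2 for G9a against wild type in normoxia and 0 at 24 h. Restricting to genes above the minimum on all arrays, which removes Cox7b2, gave 0 for the 3 response differences, 1 for the reconstituted line at 4 h and 18 for G9a against wild type at 24 h. Reversed values were Ndufb4 between 24 h and 4 h (7.12e-05 without the set, with the random set and under the replicate block), Cox7a1 (0.037) and Atp5k (-1.32) in the reconstituted line without the set and under the replicate block, and wild-type Ndufs4 (-0.0053 without WT2, 0.413 without WT1). The causes were not tested.
Leaving out 1 line or density gave 19 to 28 (all lines, 24 h), 18 to 25 (4 h), 31 to 37 (24 h against 4 h) and 32 to 38 (density) calls. Wild-type counts were 10 (without WT1) to 13 at 24 h and 4 (without WT1) to 7 (without WT2) at 4 h, Jmjd1a knockout 6 at 24 h and 6 (without JMJD1a KO2) to 8 (without JMJD1a KO1) at 4 h, G9a knockout 9 and 2, and reconstituted 6 to 8 and 2 to 3. Response differences gave 1 (Jmjd1a), 1 to 2 (G9a) and 1 (reconstituted). Levels gave 0 (Jmjd1a, normoxia) and 0 to 12 (24 h, 12 without JMJD1a KO1), 3 to 31 (G9a, normoxia, 31 without WT1, 3 without WT2 and 5 without G9a KO2) and 0 (24 h), and 15 to 30 for the reconstituted line. Fits without JMJD1a KO2 (24 h), G9a KO1 or the whole reconstituted line, and without its 600000-cell cultures, could not be made.
The array of G9a KO2 at 4 h and 200000 cells holds 79.7% of its deposited values above 20, and leaving it out, an alternative chosen after seeing the data, kept all counts within 1.5 times. Values near the minimum limit what dim genes can show.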
